A study of Mus musculus with 14 samples.

Results

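Nes-GFP high bone marrow stromal cells (BMSCs) from mice with acute myeloid leukemia (AML) were compared with Nes-GFP high BMSCs from normal mice, with 2 RNA sequencing libraries on each side. These 4 libraries are part of a series of 14, whose other 10 libraries hold Nes-GFP low BMSCs (4 from AML and 6 from normal mice). Genes were kept if at least 50 reads had been counted in 3 or more of the 4 libraries, which left 7419 of 27086 genes, and 4698 of them had at least 50 reads in all 4. The third-highest count was exactly 50 in 36 kept genes, and 49 in 18 genes just outside. The leukemic mice were primary iMLL-AF9 mice carrying the Nes-GFP reporter, in which the reverse tetracycline transactivator (rtTA) sits in the ROSA26 locus and doxycycline switches on a human MLL-AF9 fusion gene. They were sacrificed once leukemia was evident from the white cells in blood. Normal mice had the vehicle, sucrose in the drinking water, in place of doxycycline, so that AML and doxycycline cannot be told apart. GFP came from the regulatory elements of the nestin gene (Nes) and not from the Nes locus itself. Cells had been sorted as GFP+ CD45- CD31- DAPI- after red cell lysis, and the study's methods add a Ter119- gate that the sample descriptions do not name. Some libraries pooled several mice, without a record here of which ones, and the replicates are not described as separate mice, so that p-values measure the spread between libraries.

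Nestin+ BMSCs wrap bone marrow vessels and make the factors that keep blood stem cells in place, such as the chemokine Cxcl12 and the KIT ligand Kitl. The brightest reporter cells are known to lie along arterioles, and the population also holds cells that can form bone, cartilage and fat. In culture, such cells can hand mitochondria to leukemic blasts, and the study proposes that they also raise the antioxidant defence of blasts. It asked how the transcripts of Nestin+ BMSCs in leukemia differ from those in healthy marrow.

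The 4 libraries held 8213690 to 10347814 counts. Normal replicate 1 stood apart, with transcripts of 14842 genes against 18173 to 18545 in the other 3 libraries and 18.5% of its counts in 10 genes (9.26% to 13.8% in the others). Nes stood at 2.19 CPM there (reads per 1000000 counted), against 28.3, 24.6 and 29.4 CPM in the others and 0 to 6.31 CPM across the low population, so that the nestin transcript was near that of Nes-GFP low cells in this library. Ptprc, which encodes CD45, was at 14.7 and 6.47 CPM in AML and at 106 and 5.09 CPM in normal BMSCs, and Pecam1 (CD31) at 0.542 and 0.580 against 45.9 and 1.16 CPM. Both gate markers were thus highest in normal replicate 1. Replicates of 1 condition were far apart in general: 53.5% of the kept genes differed at least 2-fold between the AML replicates and 57.1% between the normal ones, and 13.6% and 21.1% at least 10-fold. Across the kept genes, Pearson's r of log2(CPM + 1) was 0.477 between the AML replicates and 0.363 between the normal replicates.

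In AML, 1179 kept genes had both CPM values above both normal values (15.9% of the kept genes) and 1021 had both below (13.8%), and in the other 5219 the ranges overlapped. The counts in gene lists below are to be read beside these shares. An exact permutation test of 2 against 2 libraries gives p = 0.333 to every gene with separate ranges. Separate ranges alone therefore cannot set a gene apart from chance. Ranges were at least 2-fold apart, from the lowest value of the higher group to the highest of the lower group, in 283 genes higher in AML (3.81%) and 214 genes lower (2.88%). The genes wide apart included Coch, the Serpina1 family and the cartilage gene Chad on the higher side, and the osteocalcin genes, Panx3 and Ccdc47 on the lower side. Reads were few behind many of these ranges: 62.2% of the genes 2-fold higher and 57.0% of those 2-fold lower had under 50 counts in 1 library, against 36.7% of all kept genes. The longest transcripts of the genes 2-fold apart were also longer, with a median of 3473.5 bases (higher) and 3240 bases (lower) against 2844 bases over the kept genes.

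No gene passed edgeR's quasi-likelihood test at an adjusted p under 0.05 among 18148 genes tested over all 14 libraries (smallest adjusted p = 0.0987). At an unadjusted p under 0.05, 1385 genes were higher and 825 lower, and limma voom called 0 as well. DESeq2 called 951 genes higher (5.74%) and 639 lower (3.85%) of 16577. Of these, 860 of the 951 had under 50 counts in both normal libraries and 556 of the 639 had under 50 counts in both AML libraries, so that the rule of 50 counts in 3 libraries removed them. Among the kept genes, DESeq2 called 91 higher (1.23%) and 79 lower (1.07%) of 7389, and 90 and 79 of them had separate ranges. Without normal replicate 2, edgeR called 169 genes higher and 25 lower (127 and 0 of them kept genes), and without normal replicate 1 it called 0 higher and 1 lower. Because no gene passed edgeR's test with all libraries, "higher" and "lower" here describe measured values, and an exact permutation test of 2 against 2 libraries cannot go below p = 0.333.

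**Figure D1:**
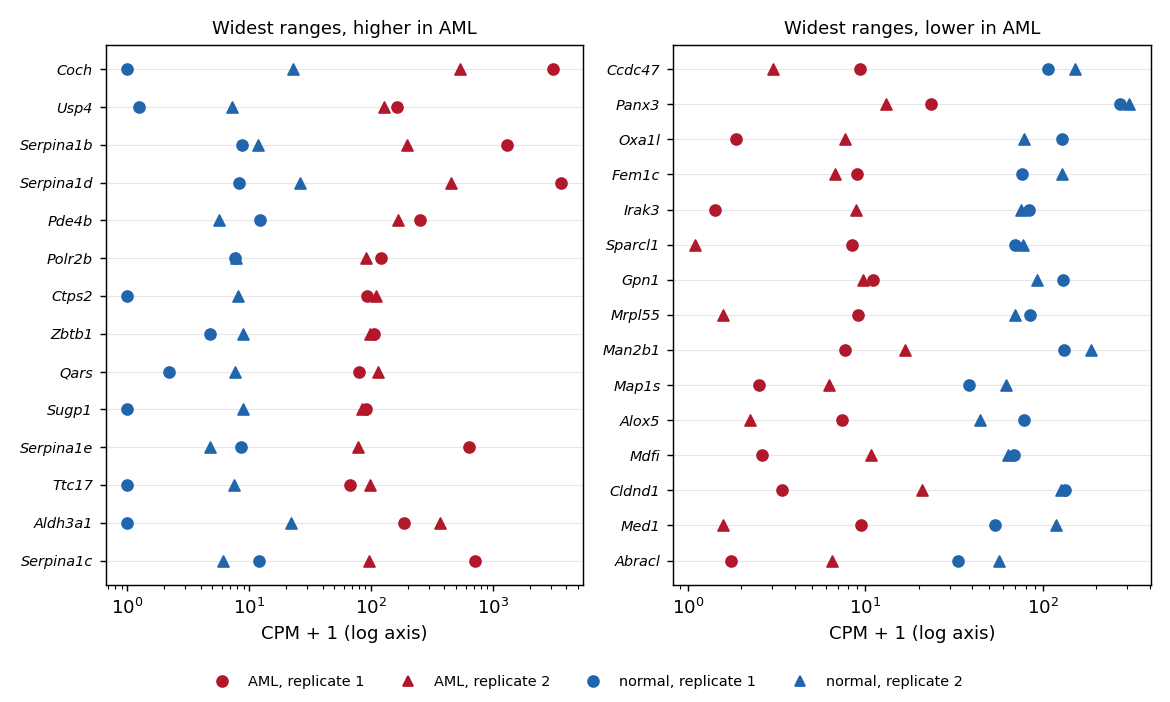
CPM + 1 on a log axis in the 4 Nes-GFP high libraries for the named genes among the 15 widest separate ranges in each direction, 1 point per library (red, AML; blue, normal; circles, replicate 1; triangles, replicate 2). In every gene shown the 2 red points lie on one side of the 2 blue points, as the choice of genes requires, with 0 CPM in normal replicate 1 for Coch, Ctps2, Sugp1, Ttc17 and Aldh3a1.

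Coch, which encodes cochlin, a secreted matrix protein best known from the inner ear, had the widest range of all kept genes. It was at 3110.1 and 535 CPM in AML and at 0 and 21.7 CPM in normal BMSCs, a gap of 24.6-fold between the nearest values (ENSMUSG00000020953, chromosome 12 of GRCm38 from 51593341 to 51605771). The groups did not overlap, as the choice of this gene requires. The log2 fold change from edgeR was 7.28 (SE 3.05, adjusted p = 0.381), while DESeq2 gave no adjusted p. In Nes-GFP low BMSCs, which the rule did not use, Coch was again apart: AML libraries ran from 78.9 to 2629.6 CPM with a median of 112 CPM, and normal ones from 0 to 13.5 CPM with a median of 1.69 CPM.

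The Serpina1 genes encode alpha-1-antitrypsin, the secreted inhibitor of neutrophil elastase, and mice carry several copies side by side on chromosome 12. All 5 copies in the table were higher in AML, and 4 of them were among the widest ranges. Their promoters are shown because the copies moved together: a run of 55 bases, in capitals, was shared by all 5 close before the gene start. The 40 bases before it, in lower case, differ at a few places. The sequences are from RefSeq (build GRCm38.p6, minus strand, 5′ to 3′).
Serpina1a, chr12:103863625-103863719: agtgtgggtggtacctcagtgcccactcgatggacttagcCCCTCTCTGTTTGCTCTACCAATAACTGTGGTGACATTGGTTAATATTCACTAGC
Serpina1b, chr12:103738200-103738294: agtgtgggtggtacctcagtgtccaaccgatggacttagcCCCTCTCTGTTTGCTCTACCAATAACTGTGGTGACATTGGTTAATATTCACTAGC
Serpina1c, chr12:103904962-103905056: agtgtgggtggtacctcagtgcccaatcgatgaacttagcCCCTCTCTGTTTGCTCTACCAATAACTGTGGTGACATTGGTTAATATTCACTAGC
Serpina1d, chr12:103773634-103773728: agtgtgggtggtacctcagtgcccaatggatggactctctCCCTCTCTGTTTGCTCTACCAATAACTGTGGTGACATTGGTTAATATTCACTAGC
Serpina1e, chr12:103956960-103957054: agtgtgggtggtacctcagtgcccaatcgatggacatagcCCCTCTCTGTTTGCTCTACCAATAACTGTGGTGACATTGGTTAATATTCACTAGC
Serpina1d was at 3641 and 454 CPM in AML and at 7.18 and 25.1 CPM in normal BMSCs. Serpina1b was at 1309 and 198 CPM against 7.79 and 10.9 CPM, and Serpina1a at 1785 and 231 CPM against 43.3 and 13.4 CPM. In each copy AML replicate 1 was the highest library, and both normal libraries were low. Serpina1c (719 and 95.8 against 11.0 and 5.09 CPM) and Serpina1e (640.3 and 77.8 against 7.55 and 3.82 CPM) had the same order. The log2 fold change of Serpina1b was 6.32 (standard error 1.62, adjusted p = 0.222 from edgeR and 0.000356 from DESeq2), and DESeq2 called all 5 copies. The 5 copies, and a pseudogene among them, are so alike that reads may be shared between them, and the annotation lets Serpina1b span Serpina1d, so they are not 5 independent observations.

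Cartilage genes were higher in AML replicate 1 above all. Of 12 chondrogenic genes, all of them kept, 4 were higher (33.3%, against 15.9% of all kept genes). Of the others 1 was lower (8.33%, against 13.8%) and 7 overlapped. The median log2 fold change of the 12 was 1.58 (0.04 over all kept genes). Chad, which encodes chondroadherin, a leucine-rich protein of the cartilage matrix, was at 35438 and 6250.5 CPM in AML and at 796 and 455 CPM in normal BMSCs (log2 fold change 5.10, standard error 1.37, adjusted p = 0.244 from edgeR). The groups were 7.85-fold apart. Its relative Chadl, which is not on the list, was at 1417 and 298 CPM against 0 and 141 CPM, 2.11-fold apart between the nearest libraries. Sox9, the master transcription factor of chondrocytes, was at 828 and 228 CPM against 50.9 and 125 CPM, and Acan (aggrecan) at 620.0 and 500.0 CPM against 4.02 and 251 CPM. Lect1 (chondromodulin) was at 7182 and 1248 CPM against 432 and 859.5 CPM. The 12 genes summed to 65529 and 15032 CPM in AML and to 7383 and 12197 CPM in normal BMSCs, so that AML replicate 2 was close to normal replicate 2 and AML replicate 1 far above both. Under scaling with TMM or with DESeq2 size factors the counts stayed at 4 and 1. In the low population, 9 of the 12 had a lower mean in AML (46.4% of all kept genes did), and Chad was at 1759.7 to 21144 CPM in AML against 873 to 3804 CPM in normal mice, with overlap.

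Usp4, a deubiquitinase and another of the widest ranges on the higher side, was at 163 and 126 CPM in AML and at 0.243 and 6.25 CPM in normal BMSCs (chromosome 9 from 108347853 to 108392545). Usp19, a deubiquitinase of the ER membrane whose gene starts within 200000 bases of it, was at 117 and 152 CPM against 9.74 and 18.3 CPM. Qars, the glutaminyl-tRNA synthetase next to Usp19, was at 79.0 and 113 CPM against 1.22 and 6.59 CPM. The log2 fold changes of Usp4, Usp19 and Qars were 5.35, 3.19 and 4.51 (standard errors 1.17, 0.76 and 1.06). Their adjusted p were 0.176, 0.178 and 0.176 from edgeR and 6.48e-06, 0.000114 and 0.000247 from DESeq2. Polr2b, the second largest subunit of RNA polymerase II, was at 120.0 and 89.5 CPM against 6.70 and 6.82 CPM. Its neighbour Rest, a repressor of neuronal genes, was at 160.5 and 169 CPM against 30.2 and 44.6 CPM. In these 2 genes the replicates of each condition lay close together. Malsu1, an assembly factor of the mitochondrial ribosome (73.5 and 34.9 against 4.75 and 6.82 CPM), and the less well known Ttc14 (113 and 138 against 33.8 and 19.0 CPM) were also apart, with adjusted p of 1.07e-05 and 9.02e-08 from DESeq2.

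Pde4b, a phosphodiesterase that breaks down cyclic AMP, was at 253 and 165 CPM in AML and at 11.3 and 4.63 CPM in normal BMSCs. Arrdc2, an alpha-arrestin, was at 281 and 110.1 CPM against 13.4 and 3.01 CPM (log2 fold change 4.65, standard error 1.01, adjusted p = 0.176 from edgeR and 1.23e-05 from DESeq2). Oxr1, which protects cells from oxidative damage, was at 43.3 and 131 CPM against 6.57 and 1.74 CPM (adjusted p = 0.176 from edgeR and 2.47e-05 from DESeq2). Oxr1 and Arrdc2 differed more than 2-fold between the AML replicates. Aldh3a1, an aldehyde dehydrogenase, was at 187 and 364 CPM against 0 and 21.1 CPM, and Ctps2, which makes CTP, at 91.2 and 108 CPM against 0 and 7.06 CPM. The zinc finger genes Zbtb1 (105 and 96.4 against 3.77 and 7.98 CPM) and Zfp326 (67.5 and 30.7 against 6.45 and 1.16 CPM) were higher, as were the splicing gene Sugp1 (89.4 and 83.9 against 0 and 7.87 CPM) and Ttc17 (66.0 and 97.9 against 0 and 6.48 CPM). For Usp4, Pde4b, Polr2b, Ctps2 and Ttc17 the ranges of the low population overlapped.

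Bone-forming genes were lower in AML in 7 of 15 cases. All 15 genes of the osteolineage list were kept, of which 7 were lower with separate ranges (46.7%, against 13.8% of all kept genes), 3 of them at least 2-fold, none was higher and 8 overlapped, and their median log2 fold change was -1.94. Neither edgeR nor DESeq2 called any of them. Osteocalcin, the small calcium-binding protein of bone matrix, is encoded by Bglap and its copies Bglap2 and Bglap3. Bglap was at 209 and 142 CPM in AML and at 7663 and 928 CPM in normal BMSCs (ENSMUSG00000074483, chromosome 3 from 88383501 to 88384464, minus strand). Bglap2 was at 133 and 105 CPM against 4653 and 584 CPM, and Bglap3 at 32.0 and 27.1 CPM against 1267 and 166 CPM. The AML replicates were close to each other in all 3, whereas normal replicate 1 was far above normal replicate 2. Their log2 fold changes ran from -4.53 to -4.38 (standard errors 2.12 to 2.14, adjusted p = 0.416 to 0.422 from edgeR and 0.0849 to 0.102 from DESeq2), and the 3 copies may share reads. Car3, a carbonic anhydrase of this list, was at 51.6 and 151 CPM against 2968 and 199.5 CPM.

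The promoter of Bglap is shown because osteocalcin is the classic target of the bone transcription factor Runx2, whose core motif ACCACA stands in capitals. The 250 bases before the gene start, from RefSeq (GRCm38.p6, minus strand, 5′ to 3′), hold 1 match that begins 132 bases before the start.
Bglap, chr3:88384467-88384716: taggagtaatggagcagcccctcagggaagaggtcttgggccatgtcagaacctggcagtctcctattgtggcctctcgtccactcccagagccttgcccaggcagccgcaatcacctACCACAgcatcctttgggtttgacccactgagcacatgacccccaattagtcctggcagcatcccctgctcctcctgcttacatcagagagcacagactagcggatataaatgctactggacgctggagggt
On either strand (TGTGGT on the other), the same letters are found in 14.05% of 32851 promoter windows of this length, and also in those of the 5 Serpina1 copies, which were higher in AML. The match is a description of these letters and says nothing of binding.

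Panx3, a channel protein of osteoblasts and chondrocytes, was at 22.6 and 12.2 CPM in AML and at 271 and 304 CPM in normal BMSCs, with a gap of 12.0-fold and replicates close together on both sides (log2 fold change -4.07, standard error 2.11, adjusted p = 0.449 from edgeR). Collagen I was lower in AML in both of its chains, at 2301 and 4133 CPM against 50119 and 5239 CPM for Col1a1 and at 1329 and 3724 CPM against 22615 and 4166 CPM for Col1a2. The gap between the nearest values was 1.27-fold and 1.12-fold, which rested on normal replicate 2 being little above AML replicate 2. Over 15 kept collagens 1 was higher (Col18a1, 76.8 and 274 against 15.9 and 53.3 CPM) and 2 were lower (13.3%, near the 13.8% of all kept genes). Over 31 kept matrix genes 2 were higher and 4 lower (12.9%). Among the latter, Sparcl1 (7.37 and 0.0966 against 68.9 and 76.2 CPM), the matrix protein Fbln1 (3.79 and 91.8 against 193 and 434 CPM) and the collagen chaperone Serpinh1 (724 and 1111 against 5169 and 1567 CPM) were lower. Timp3, an inhibitor of matrix metalloproteinases, was higher (165 and 268 against 113 and 53.2 CPM). The osteolineage list summed to 17269 and 30904 CPM in AML and to 125438 and 22346.5 CPM in normal BMSCs, so that normal replicate 2 lay between the AML libraries. Without normal replicate 1, 9 of the 15 were lower and 3 higher than normal replicate 2, and without normal replicate 2, 11 were lower and 2 higher than normal replicate 1. In the low population 14 of the 15 had a lower mean in AML, against 46.4% of all kept genes. Panx3 was at 0.0966 to 159 CPM there in AML and at 89.9 to 311 CPM in normal mice, with overlap. In bulk libraries, fewer cells of a type and less RNA per cell cannot be told apart.

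Ccdc47, which takes part in inserting proteins into the ER membrane, was at 8.35 and 2.03 CPM in AML and at 106 and 151 CPM in normal BMSCs, and it led the genes lower in AML with a gap of 12.6-fold (log2 fold change -4.65, standard error 1.07, adjusted p = 0.176 from edgeR and 5.63e-05 from DESeq2). Psmc5, an ATPase of the proteasome whose gene is close to it on chromosome 11, was at 72.7 and 74.5 CPM against 218 and 175 CPM. Gpn1, a GTPase needed to bring RNA polymerase II into the nucleus, was at 10.1 and 8.70 CPM against 129 and 91.5 CPM. In these 3 the replicates lay within a narrow range, apart from the low counts of Ccdc47 in AML. Oxa1l, which inserts proteins into the inner mitochondrial membrane, was at 0.867 and 6.67 CPM against 127 and 77.6 CPM. Man2b1, the lysosomal alpha-mannosidase, was at 6.72 and 15.7 CPM against 131 and 186 CPM. Map1s, a microtubule-associated protein linked to autophagy, was at 1.52 and 5.22 CPM against 37.3 and 61.4 CPM. For these 3 genes the Nes-GFP low values overlapped between the conditions, with a higher median in AML than in normal mice (45.8, 366 and 77.5 against 16.0, 159.9 and 42.5 CPM).

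Irak3, an inhibitor of Toll-like receptor signalling, was at 0.434 and 7.92 CPM in AML and at 82.8 and 74.3 CPM in normal BMSCs. Alox5, the first enzyme of leukotriene synthesis, was at 6.40 and 1.26 CPM against 77.6 and 43.3 CPM. Both genes were picked for their wide ranges, so low values in both AML libraries follow from the choice. The other genes lower in AML by this measure were Fem1c, a substrate receptor for ubiquitin ligases (8.02 and 5.80 against 75.5 and 128 CPM), Med1, a Mediator subunit (8.46 and 0.580 against 52.8 and 119 CPM), Mdfi, an inhibitor of MyoD-type factors (1.63 and 9.76 against 68.2 and 62.5 CPM), Cldnd1 (2.39 and 20.004 against 133 and 126 CPM) and Abracl (0.759 and 5.51 against 32.5 and 55.9 CPM). DESeq2 called further genes with narrower gaps, among them Taf12, a subunit of TFIID (6.83 and 1.45 against 11.7 and 143 CPM), the chromatin remodeller Baz1b (5.85 and 9.28 against 28.0 and 60.8 CPM) and Golt1b of the Golgi (27.9 and 64.8 against 135 and 232 CPM). In Taf12, normal replicate 1 lay near the AML values, so that its low adjusted p of 0.00101 from DESeq2 came with a gap of 1.71-fold.

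**Figure D2:**
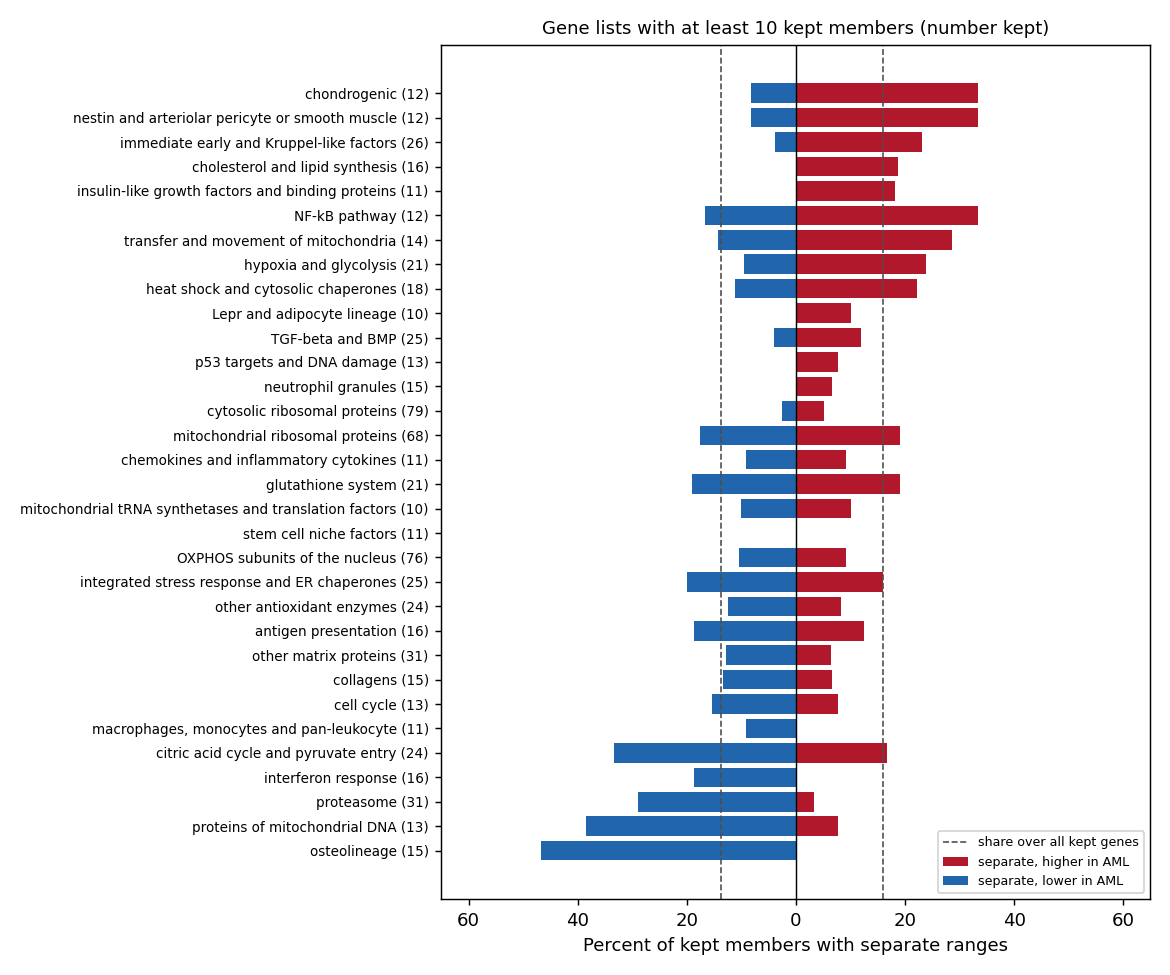
Percent of the kept members of each gene list with separate CPM ranges, higher in AML (red, to the right) and lower in AML (blue, to the left), for lists with at least 10 kept members, whose number is in parentheses. The dashed lines give the share over all kept genes, 15.9% and 13.8%, which osteolineage genes (7 of 15 lower), mitochondrial DNA genes (5 of 13 lower), the citric acid cycle (8 of 24 lower) and the proteasome (9 of 31 lower) pass by the most on the left.

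Mitochondria were the organelle the study was most concerned with. They burn pyruvate through the citric acid cycle and pass the electrons to the respiratory chain, whose complexes are built from nuclear and mitochondrial genes. Of 24 kept genes of the cycle and of pyruvate entry, 8 were lower in AML (33.3%, against 13.8% of all kept genes). Of the others 4 were higher (16.7%, against 15.9%) and 12 overlapped, and the median log2 fold change of the list was -0.27. Without AML replicate 1 the lean was gone, with 10 higher and 9 lower. Leaving out any other Nes-GFP high library gave 5 to 8 higher and 10 to 13 lower. Pdhb, the E1 beta subunit of pyruvate dehydrogenase, was at 19.9 and 1.84 CPM in AML and at 169 and 74.1 CPM in normal BMSCs (log2 fold change -3.42, standard error 0.94, adjusted p = 0.256 from edgeR and 0.00211 from DESeq2). Fh1 (fumarase) was at 13.8 and 1.64 CPM against 40.5 and 51.0 CPM, and Idh1, the cytosolic NADP-dependent isocitrate dehydrogenase, at 39.0 and 58.5 CPM against 127 and 303 CPM. Sdhb, the iron-sulfur subunit of succinate dehydrogenase, was at 91.5 and 121 CPM against 394 and 221 CPM. These 4 are the members that DESeq2 called, all lower, and the groups were 1.83-fold to 3.72-fold apart. In Nes-GFP low BMSCs Pdhb, Idh1, Fh1 and Sdhb overlapped between the conditions, with a median of Fh1 of 132 CPM with AML and 72.7 CPM without.

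Respiratory chain genes showed no common direction. Of 76 nuclear genes, all kept, 7 were higher, 8 were lower and 61 overlapped (median log2 fold change -0.13), which is a smaller share on either side than over all kept genes. Uqcrc1, a core subunit of complex III, was at 60.8 and 133 CPM in AML and at 489.9 and 379.5 CPM in normal BMSCs (adjusted p = 0.00838 from DESeq2). Cox5b of complex IV (88.1 and 93.0 against 229 and 185 CPM) and Atp5g3 of the ATP synthase (70.6 and 68.2 against 158 and 171 CPM) were lower as well. Ndufs5 of complex I was higher, at 164 and 209 CPM against 75.5 and 68.0 CPM (adjusted p = 0.0198 from DESeq2). Of the 13 protein genes of mitochondrial DNA, 5 were lower (38.5%, against 13.8% of all kept genes) and 1 was higher (7.69%, against 15.9%). mt-Nd1, a complex I subunit, was at 628 and 872 CPM against 1488 and 1885 CPM, mt-Co2 of complex IV at 395 and 317 CPM against 894 and 600.1 CPM, and mt-Nd4l at 75.0 and 93.8 CPM against 106 and 118 CPM. mt-Nd6, which lies on the other strand, was the exception, at 144 and 141 CPM against 64.2 and 92.4 CPM, and without strand its reads cannot be told from those of the transcript across it. The summed CPM of the 13 genes nevertheless overlapped, with 12077 and 14628 CPM in AML against 19527.5 and 14502 CPM in normal BMSCs.

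**Figure D3:**
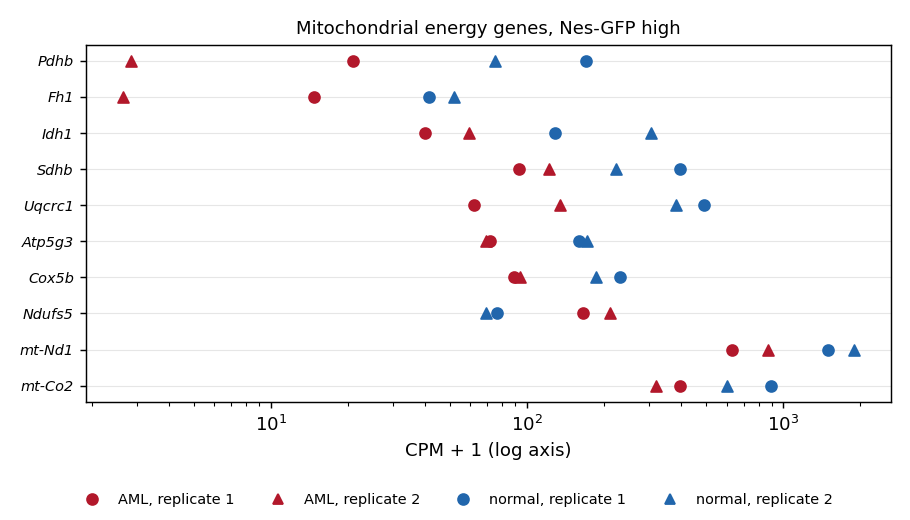
CPM + 1 on a log axis of 10 genes of the citric acid cycle and respiratory chain in the 4 Nes-GFP high libraries, 1 point per library (red, AML; blue, normal; circles, replicate 1; triangles, replicate 2). The genes were picked for their separate ranges: 9 are lower in AML and Ndufs5 is higher, and in Pdhb and Fh1 AML replicate 2 is under 2 CPM. Of the 10, Idh1 encodes a cytosolic enzyme outside the cycle.

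Genes that build mitochondria went both ways. Of 68 kept mitochondrial ribosomal proteins, 13 were higher and 12 lower, and 43 overlapped. The shares, 19.1% and 17.6%, were near the 15.9% and 13.8% of all kept genes. Mrps22 (41.3 and 32.7 against 3.90 and 5.90 CPM), Mrpl3 (81.5 and 95.5 against 25.2 and 1.62 CPM) and Mrpl27 (103 and 84.8 against 29.1 and 3.24 CPM) led the higher side. DESeq2 called 4 of the 68 higher, and of all kept genes it called 1.23% higher and 1.07% lower. Mrpl55 was at 8.13 and 0.580 CPM in AML and at 83.6 and 68.6 CPM in normal BMSCs, and it was the 1 member DESeq2 called lower. Among 10 kept tRNA synthetases and translation factors of mitochondria, Tsfm was higher (30.6 and 23.4 against 9.86 and 17.6 CPM) and Sars2 lower (11.0 and 1.45 against 24.7 and 20.8 CPM). Tfam, which packs and transcribes mitochondrial DNA, was at 49.9 and 27.6 CPM in AML and at 0 and 1.85 CPM in normal BMSCs, but with under 50 counts in both normal libraries it was not a kept gene, and its adjusted p was 0.321 from edgeR and 0.00774 from DESeq2. In a list on the transfer and movement of mitochondria, 4 of 14 kept genes were higher (28.6%) and 2 were lower (14.3%). Bnip3l, a mitophagy receptor, was at 164 and 149 CPM against 78.5 and 75.5 CPM, Bnip3 at 110.2 and 75.3 CPM against 55.9 and 59.1 CPM, and the motor gene Kif5b at 113 and 84.8 CPM against 4.26 and 56.4 CPM. Tnfaip2, which takes part in forming tunnelling nanotubes, was lower, at 37.5 and 121 CPM against 155 and 249 CPM.

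Antioxidant genes were split. Glutathione is the main small antioxidant of cells, made with the help of Gclc and used by the Gpx peroxidases, and Gsr returns it to the reduced form. Of 21 kept genes of the glutathione system 4 were higher and 4 lower (19.0% each). Of 24 other antioxidant genes 2 were higher (8.33%) and 3 lower (12.5%). Over all kept genes the shares were 15.9% and 13.8%. Neither edgeR nor DESeq2 called a kept member of either list. Gpx1 was at 476 and 237 CPM in AML and at 592 and 136 CPM in normal BMSCs, and the secreted Gpx3 at 6020.1 and 9582 CPM against 6719.5 and 12391 CPM, so that both overlapped. Gpx4, which detoxifies lipid peroxides, was at 238 and 243 CPM against 322 and 278 CPM, and Gsr at 184 and 243 CPM against 180.1 and 180.0 CPM. Their gaps of 1.14-fold and 1.02-fold are separate in name more than in size. The transferases Gsto1 (41.3 and 20.004 against 0 and 13.9 CPM) and Gstm5 (46.4 and 81.6 against 40.5 and 4.16 CPM) were higher, and Gstp1 (130.3 and 109 against 294 and 177 CPM) lower. Gclc was near 0 in all 4 libraries (0.759 and 0.193 against 0 and 1.27 CPM) and was not kept. Selo, a selenoprotein of mitochondria, was not kept either, with 91.4 and 54.3 CPM against 2.43 and 0.810 CPM, and DESeq2 called it higher (log2 fold change 5.44, adjusted p = 3.43e-12). The ferritin chains went opposite ways, with Fth1 at 5391 and 3619 CPM against 2389 and 2525 CPM and Ftl1 at 769.5 and 701 CPM against 1069 and 1205 CPM. The selenoprotein Sepw1 (148 and 183 against 241 and 458 CPM) and the ER peroxiredoxin Prdx4 (31.8 and 317 against 343 and 375 CPM) were lower.

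Proteasome genes leaned to the lower side. Of 31 subunit genes, all kept in all 4 libraries, 9 were lower and 1 was higher (11 and 1 after TMM). The shares were 29.0% and 3.23%, against 13.8% and 15.9% of all kept genes. Psmd3 of the regulatory particle was at 68.4 and 26.7 CPM in AML and at 158 and 193 CPM in normal BMSCs, and the core subunits Psmb2 (87.6 and 144 against 232 and 278 CPM) and Psma7 (191 and 204 against 386 and 306 CPM) were lower too. Psmc5, given above, was the member called by DESeq2 (adjusted p = 0.00299). Of 79 kept genes of cytosolic ribosomal proteins 4 were higher (5.06%, against 15.9% of all kept genes) and 2 lower (2.53%, against 13.8%), and 73 overlapped. Rpl13a was lower (11.38 and 8.41 against 28.7 and 38.3 CPM) and Rpl10a higher (390.4 and 394 against 291 and 121 CPM), and both have processed pseudogenes that can take reads. The 79 genes summed to 32697 and 16178 CPM in AML against 27604.5 and 15824 CPM in normal BMSCs, so that in each condition replicate 1 was the higher. In the low population 77 of the 79 had a higher mean in AML, against 53.6% of all kept genes.

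Of the kept genes of the stress lists, DESeq2 called Ddit3 alone, and of those not kept it called Nr4a2 higher and Chac1 and Sdf2l1 lower. Ddit3, the transcription factor CHOP of the integrated stress response, was at 371 and 86.5 CPM in AML and at 27.6 and 17.6 CPM in normal BMSCs (log2 fold change 3.37, standard error 0.97, adjusted p = 0.270 from edgeR and 0.0063 from DESeq2). AML replicate 1 was by far the highest library. Over the 25 kept genes of that response and of ER chaperones, however, 4 were higher (16%, against 15.9% of all kept genes, and 2 genes after TMM). Lower were 5 (20%, against 13.8%), among them the chaperone Canx (137 and 129 against 208 and 273 CPM). Of 18 heat shock genes 4 were higher (22.2%), such as the co-chaperones St13 (213 and 109 against 67.1 and 74.1 CPM) and Dnajb4 (131 and 46.9 against 32.4 and 1.39 CPM). Lower were 2 (11.1%), Hsph1 (33.2 and 0.870 against 48.5 and 45.0 CPM) and Ahsa1 (92.7 and 38.3 against 113 and 151 CPM). Of 26 immediate early and Kruppel-like factors 6 were higher (23.1%, against 15.9% of all kept genes) and 1 lower (3.85%, against 13.8%). Their median log2 fold change was 1.03. Nr4a1, a nuclear receptor induced within minutes of a stimulus, was at 1839 and 758 CPM against 587 and 42.5 CPM, the phosphatase Dusp5 at 68.7 and 111 CPM against 23.9 and 1.27 CPM, and Myc at 337 and 151 CPM against 85.8 and 122 CPM. Klf6 was lower (151 and 135 against 279 and 212 CPM). This list summed to 38069 and 11553 CPM in AML against 17917 and 7913 CPM in normal BMSCs, again with replicate 1 above replicate 2 in both, and such genes also respond to cell preparation, whose part was not tested. Of 13 p53 target genes 1 was higher, the ribonucleotide reductase Rrm2b (13.0 and 48.5 against 8.40 and 2.54 CPM).

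Of 21 hypoxia and glycolysis genes 5 were higher (23.8%, against 15.9% of all kept genes) and 2 lower. The glucose transporter Slc2a1 was at 99.9 and 42.2 CPM in AML and at 13.5 and 3.24 CPM in normal BMSCs, the stress gene Ndrg1 at 166 and 136 CPM against 15.6 and 73.8 CPM, and the hexokinase Hk1 at 214 and 55.4 CPM against 42.0 and 7.75 CPM. The angiogenic factor Vegfa was lower, at 13.2 and 11.7 CPM against 28.1 and 20.2 CPM. Of 16 cholesterol and lipid synthesis genes 3 were higher (18.8%, near the 15.9% of all kept genes) and none lower. Scd1, which desaturates fatty acids, was at 144 and 171 CPM against 24.3 and 3.59 CPM (adjusted p = 0.279 from edgeR and 0.00881 from DESeq2). Hmgcs1, which catalyses an early step of cholesterol synthesis, was at 39.4 and 81.9 CPM against 16.3 and 1.62 CPM. In both, normal replicate 2 was the lowest library. With at least 50 counts asked in all 4 libraries, neither stayed among the 10 genes left, of which none was higher or lower. In Nes-GFP low BMSCs Scd1 had a lower median in AML (38.0 against 102 CPM).

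Interferon response genes had 3 lower members among 16 kept (18.75%, near the 13.8% of all kept genes). None was higher, and the median log2 fold change was -0.94. Irf7, the transcription factor that amplifies type I interferon, was at 36.4 and 51.6 CPM in AML and at 106 and 326 CPM in normal BMSCs (log2 fold change -2.38, standard error 0.68, adjusted p = 0.269 from edgeR and 0.00369 from DESeq2). In the low population it was at 32.2 to 55.3 CPM in the 4 AML libraries and at 97.2 to 214 CPM in the 6 normal ones, so that all 6 AML libraries of both populations were below all 8 normal ones. Irf9, a subunit of the ISGF3 complex, was at 20.8 and 1.35 CPM against 47.4 and 49.4 CPM, and Xaf1, an interferon-induced gene of cell death, at 6.29 and 41.7 CPM against 55.0 and 49.7 CPM. Of 16 antigen presentation genes 3 were lower (18.75%, near the 13.8% of all kept genes) and 2 higher (12.5%, against 15.9%). The class I gene H2-Q7 was at 76.4 and 248 CPM against 431 and 625 CPM, the light chain B2m at 536 and 1969 CPM against 2351 and 3657 CPM, and the immunoproteasome subunit Psmb10 at 43.4 and 68.8 CPM against 75.2 and 322 CPM. The class II gene H2-Ab1 was higher, at 56.8 and 43.2 CPM against 37.3 and 1.85 CPM. In each of the 3 lower genes AML replicate 1 was the lowest library.

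In the NF-kB pathway 4 of 12 kept genes were higher (33.3%, against 15.9% of all kept genes) and 2 lower (16.7%, against 13.8%). Rela, the p65 subunit, was at 180.2 and 95.7 CPM in AML and at 56.1 and 5.44 CPM in normal BMSCs, and its inhibitor Nfkbia at 502 and 475 CPM against 431 and 217 CPM. Bcl3, an atypical IkB protein, was lower, at 8.999 and 26.8 CPM against 106 and 98.6 CPM, and DESeq2 called it (adjusted p = 0.0377). Among 11 chemokines and cytokines, Ccl2, which attracts monocytes, was lower (0.759 and 17.2 against 24.6 and 74.0 CPM) and the acute phase gene Saa3 higher (17.6 and 9.08 against 5.84 and 7.98 CPM).

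None of the 11 kept niche factors parted the groups, while 15.9% of all kept genes were higher and 13.8% lower. Cxcl12 was at 1230.1 and 26834 CPM in AML and at 6459 and 34763 CPM in normal BMSCs, and Kitl at 9.32 and 366 CPM against 78.8 and 598 CPM. Lepr, the leptin receptor (131 and 1002 against 225 and 1132 CPM), the adhesion molecule Vcam1 (107 and 998 against 256 and 1165 CPM) and the Tie2 ligand Angpt1 (19.4 and 59.6 against 38.8 and 120.1 CPM) had the same order, with replicate 1 below replicate 2 in both conditions. Each replicate of AML was also below the normal library of the same number, but the numbers pair nothing in the labels. Spp1 (osteopontin) was at 10194 and 15192 CPM against 24253 and 3891 CPM. Of 10 genes of Lepr+ and adipocyte cells, Cebpb, an early adipogenic factor, was higher (52.7 and 278 against 5.36 and 25.0 CPM), and Apoe overlapped (10097 and 2997 against 1104 and 3489 CPM).

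Of 12 kept pericyte genes 4 were higher (33.3%, against 15.9% of all kept genes) and 1 lower (8.33%, against 13.8%). The other 7 overlapped, and the median log2 fold change of the 12 was -0.44, so the list as a whole did not lean to the higher side. Without normal replicate 1, 4 were higher and 7 lower, and without normal replicate 2, 7 were higher and 1 lower. Only 6 of the 12 had at least 50 counts in all 4 libraries. Cspg4, which encodes the pericyte proteoglycan NG2, was at 55.2 and 42.3 CPM in AML and at 6.82 and 13.996 CPM in normal BMSCs, Tagln, a smooth muscle actin-binding protein, at 101 and 65.4 CPM against 27.3 and 3.47 CPM, and Ndufa4l2 at 288 and 93.7 CPM against 37.4 and 57.0 CPM. Acta2, smooth muscle actin, was lower (35.3 and 34.2 against 64.8 and 45.2 CPM). The whole list summed to 1221 and 1863 CPM in AML, within the 465 and 3029 CPM of normal BMSCs. Of 4 kept Schwann cell genes, Ncam1 (198 and 104 against 66.7 and 65.2 CPM) and the myelin gene Pmp22 (316 and 379.9 against 225 and 160.1 CPM) were higher. This is 50% of a short list, against 15.9% of all kept genes. Of 11 kept genes of the IGF system 2 were higher (18.2%, near the 15.9% of all kept genes) and none was lower. The 2 were Igf2 (102 and 41.7 against 15.5 and 19.9 CPM) and Irs2 (27.5 and 45.7 against 11.8 and 24.6 CPM). Of 25 kept TGF-beta and BMP genes 3 were higher (12%, against 15.9% of all kept genes) and 1 lower (4%, against 13.8%). The receptor Bmpr1a (104 and 34.2 against 7.79 and 1.39 CPM), Tgfbi (151 and 187 against 75.4 and 5.44 CPM) and Bmp2 (71.7 and 38.6 against 21.7 and 14.2 CPM) were higher and Acvrl1 (1.73 and 40.4 against 52.7 and 115 CPM) lower. Of 9 kept Notch and Wnt genes 1 was higher and 1 lower (11.1% each, against 15.9% and 13.8%). These 2, both Wnt co-receptors, went opposite ways, with Lrp5 higher (11.0 and 68.6 against 9.86 and 3.35 CPM) and Lrp6 lower (21.8 and 26.0 against 39.1 and 86.3 CPM). Of 13 kept cell cycle genes 1 was higher (7.69%, against 15.9% of all kept genes) and 2 were lower (15.4%, against 13.8%). The replication helicase Mcm7 was higher (171 and 135 against 100.2 and 55.3 CPM), and Tyms (21.2 and 18.8 against 52.2 and 60.7 CPM) and Stmn1 (29.3 and 43.2 against 104 and 63.2 CPM) were lower.

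Transcripts of blood cells, which the sort should remove, differed between the libraries. All 6 kept genes of the erythroid list were lower in AML (13.8% of all kept genes were), at least 2-fold in 4 (2.88% of all kept genes). Their median log2 fold change was -5.43, and DESeq2 called 4 (it called 1.07% of all kept genes lower). Only 2 of the 6 had at least 50 counts in all 4 libraries. The rest passed the rule with an AML library under 50 counts, through the normal libraries where they were higher. Hbb-bs, an adult beta globin, was at 14.7 and 2.32 CPM in AML and at 703 and 30.5 CPM in normal BMSCs, and Hba-a2 at 7.59 and 1.06 CPM against 554 and 16.0 CPM, and globin copies may share reads. Hbb-bt (7.70 and 2.03 against 522 and 25.7 CPM) and the carbonic anhydrase Car1 (8.999 and 7.25 against 81.2 and 20.4 CPM) were lower too. As the ranges of the 6 genes were separate, leaving out 1 of the 4 libraries could not change this count. The whole list of 19 genes summed to 154 and 44.2 CPM in AML and to 3173 and 167 CPM in normal BMSCs, so that normal replicate 2 was close to AML replicate 1. Genes of neutrophil granules overlapped in 14 of 15 cases (5219 of all 7419 kept genes did), with S100a8 at 3322 and 597 CPM against 10084 and 268 CPM and Ngp at 2566 and 491 CPM against 5717 and 197 CPM. Prtn3 (proteinase 3) was the 1 gene higher (63.1 and 34.5 against 18.4 and 6.36 CPM). The neutrophil list summed to 12606 and 2197 CPM in AML and to 32083 and 1022 CPM in normal BMSCs, and the macrophage list to 2751 and 644 CPM against 8936 and 955 CPM. Without normal replicate 1, 12 of the 15 neutrophil genes were higher and none lower in AML, and without normal replicate 2, 1 was higher and 12 were lower. Of its 11 kept genes the protease Ctss was lower (29.2 and 5.70 against 85.6 and 39.6 CPM), while the lysozyme gene Lyz2 overlapped (1349 and 155 against 5927 and 543 CPM). Of the targets of MLL-AF9 in blasts, 4 were kept, and Hoxa9 was higher by 1.08-fold between the nearest values (83.9 and 42.4 against 36.04 and 39.2 CPM), which overlapped after TMM. The light chain gene Igkc was lower (0.651 and 7.73 against 77.7 and 14.8 CPM). The erythroid, neutrophil and macrophage sums were highest in normal replicate 1, as was the osteolineage sum, and the part of blood cell transcripts in the other differences was not tested.

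**Figure D4:**
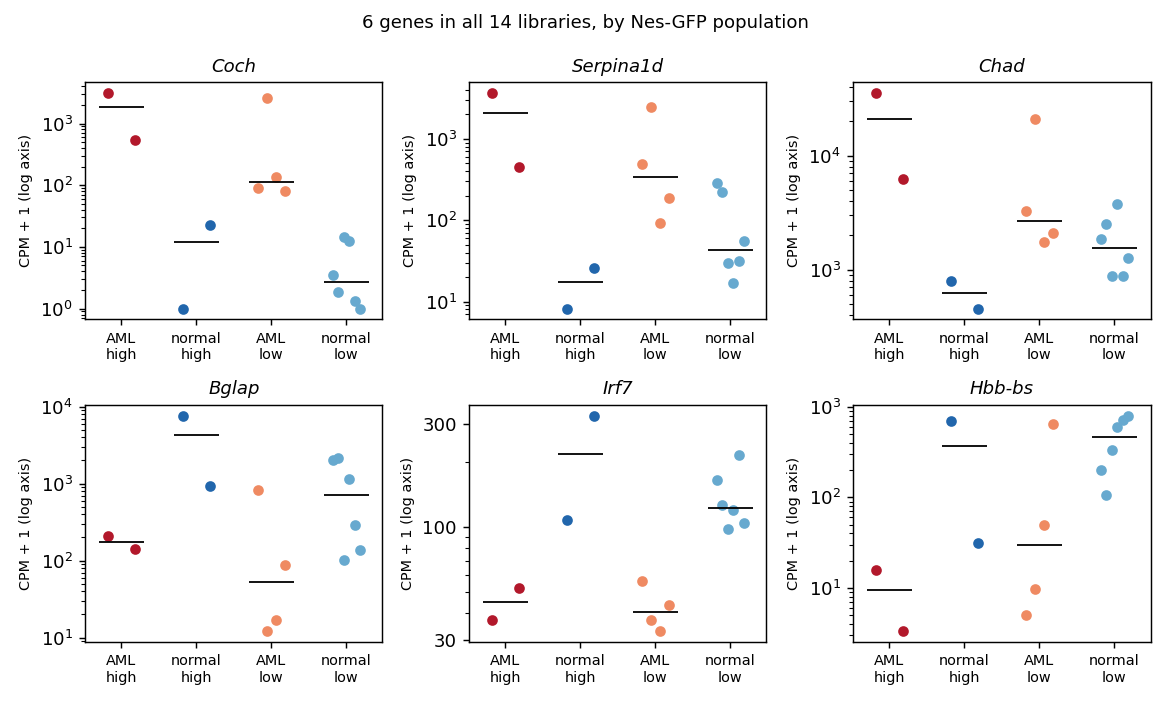
CPM + 1 on a log axis of 6 genes in all 14 libraries, by condition and Nes-GFP population, 1 point per library with a line at the median of the group. Coch and Irf7 part AML from normal libraries in both populations, whereas Serpina1d, Chad, Bglap and Hbb-bs part the high libraries and overlap in the low ones.

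Nes-GFP low BMSCs offered the same measure in libraries the rule had not used. Of the 283 genes 2-fold higher above, 61.1% also had a higher mean CPM in AML in the low population, against 53.6% of all kept genes. The gap between these shares was smaller with at least 50 counts in all 4 libraries (55.1% against 54.8%) and without AML low replicate 2 (53.0035% against 51.9%). Of the 214 genes 2-fold lower, 62.6% had a lower mean, against 46.4% of all kept genes. Ranges in the low population were separate in 37 kept genes higher in AML (0.499%) and 28 lower (0.377%). Among the genes 2-fold apart in the high population, 5 were separate in the same direction and 6 in the opposite one. The 5 were Coch, Irf7, Mageh1, Agpat3 and Tomm70a. Mageh1, of the MAGE family, was at 0.434 and 11.8 CPM in AML and at 44.8 and 49.4 CPM in normal BMSCs of the high population, and at 0.193 to 11.1 against 13.7 to 65.1 CPM in the low population. Tomm70a, a receptor for import into mitochondria, was at 26.1 and 46.4 CPM against 109 and 115 CPM, and at 3.56 to 82.1 against 88.6 to 339.6 CPM. Agpat3, of phospholipid synthesis, was at 0.434 and 31.4 CPM against 78.5 and 80.7 CPM. Whether the AML effect differed between high and low cells was tested with edgeR, which called 0 of 18148 genes (smallest adjusted p = 0.1805), with 1164 and 644 genes at an unadjusted p under 0.05, and DESeq2 called 501 (3.10%) and 269 (1.66%) of 16178, of which 32 and 28 were kept genes (0.433% and 0.379%).

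With all 14 libraries, the 6 AML libraries lay above the 8 normal ones in 4 of the 7419 kept genes and below them in 4. How many genes would part by chance, here or in the low population alone, was not tested, so these genes are a description of the values. The 4 higher genes were Coch, Ncam1, Tm2d2 and Gnb1, and the 4 lower ones Irf7, Car12, Mageh1 and Tomm70a. The nearest values were 3.63-fold apart in Coch and 1.76-fold in Irf7, and 1.002-fold to 1.18-fold in the others. Tm2d2, Gnb1 and Car12 are named because of this pattern, after their values had been seen. Gnb1, a beta subunit of G proteins, ran from 276 to 334 CPM in AML and from 96.9 to 275 CPM in normal libraries.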

How the data were processed

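Reads were polyA-selected Smart-seq2 libraries of sorted Nes-GFP+ BMSCs, 14 in 4 groups by condition and Nes-GFP population. The authors trimmed them with Trim Galore 0.4.1, aligned them to mm10 with TopHat2 2.1.0 and counted them per gene with featureCounts, and used DESeq2 1.14.1. The deposited values are raw counts of reads per gene, and no molecular identifiers were used, so that counts cover molecules amplified by PCR. Of 16 library columns, 2 matched no sample and were not used here. Repeated symbols were summed, which left 27086 genes.

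CPM were counts divided by the library total and multiplied by 1000000. Ranges were called separate where the lowest value of the higher group was above the highest of the lower group, among genes with at least 50 counts in 3 or more of the 4 Nes-GFP high libraries. Differences were tested with edgeR 4.0.16 (quasi-likelihood, TMM, filterByExpr with a minimum count of 10, Benjamini-Hochberg adjustment, two-sided) over all 14 libraries in 4 groups, with R 4.3.3. Log2 fold changes and standard errors are from edgeR unless DESeq2 is named. DESeq2 1.42.0, limma voom 3.58.1, other scalings, filters and count minimums, a replicate block and leaving out each library were the alternatives. Both steps were tested on simulated data with less spread between replicates than these libraries have. The simulations therefore do not show how the steps perform at the spread seen here. Tables and plots were made with Python 3.11.15, pandas 2.3.3 and matplotlib 3.10.9. Positions are from GENCODE M21 (GRCm38), found for 7230 of the 7419 kept genes, and promoter sequences from RefSeq.

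The members and the 41 gene lists were chosen with earlier results of these data known. Named genes were the 15 widest separate ranges in each direction, up to 4 of the widest in each list, 13 genes of the niche and of antioxidant defence, and the genes with the smallest p. Outside this rule, Serpina1a was named as a copy of its family and Mapk3, Tm2d2, Gnb1 and Car12 after their values were seen, and Ptprc and Pecam1 as gate markers. Not every gene that this rule names is reported here. Replicates of 1 group differed far beyond sampling noise, so none was counted as a copy of another.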

Additional observations from a re-analysis of the deposited data

Results flagged for a closer look

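In Nes-GFP low BMSCs from AML mice, replicate 2 stood apart from the other 3 libraries in Coch (2629.6 CPM) and in Chadl (916 CPM), and replicate 1 in Rap2c, a small GTPase (0.543 CPM). In all, 30 groups were looked at in this way, and chance sets a sample apart in about 1 in 20 groups.

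In 6 genes at least 2-fold apart, every Nes-GFP high library moved one way and every Nes-GFP low library the other. Rap2c, Stk39, Rest and Mrps22 were higher in AML in the high population and lower in the low one, where the nearest values were 1.45-fold, 1.23-fold, 1.17-fold and 1.02-fold apart. Arhgap12 and Mapk3 were lower in the high population and higher in the low one, by 1.32-fold and 1.01-fold between the nearest values. Rest was at 160.5 and 169 CPM in AML and at 30.2 and 44.6 CPM in normal cells of the high population, and at 3.21 to 47.9 against 56.0 to 83.3 CPM in the low population. Mapk3, the kinase ERK1, was at 19.7 and 33.3 CPM against 92.3 and 90.1 CPM, and at 71.8 to 103 against 25.5 to 71.4 CPM. edgeR's test of the difference between the populations passed in none of the 6, with adjusted p of 0.309 (Mrps22) to 0.465 (Arhgap12).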

How the results depend on the processing

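With all 14 libraries, edgeR called 0 genes under every scaling and filter tried and with the replicate block (smallest adjusted p = 0.469, and 0.697 for the difference between the populations), and limma voom called 0, whereas DESeq2 called 1590 and, for the difference, 770. Leaving out 1 library gave 0 to 194 calls and 0 to 144 for the difference, the highest without normal Nes-GFP high replicate 2. Deviations of same-numbered libraries had r from -0.243 to 0.489. Between AML and normal libraries of 1 population r was over 0.1 in 5 of 6 pairs and -0.151 in the other. The 2 Nes-GFP high pairs had the same r of 0.125, which groups of 2 libraries force. Libraries of unlike number reached 0.483 (AML low replicate 1 with normal low replicate 2), so a pairing by number was not shown.

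Separate ranges numbered 697 (higher) and 695 (lower) with 50 counts asked in all 4 libraries, and ranges 2-fold apart 107 and 92. With a minimum of 20 counts, 435 were 2-fold higher and 290 lower. Leaving out a Nes-GFP high library, which compares 1 value with 2, gave 2420 to 2630 higher and 2046 to 2528 lower, and 792 to 1423 and 635 to 1230 at 2-fold. DESeq2 size factors turned the split from 1179 higher and 1021 lower to 1065 and 1110. The share of 2-fold higher genes that were higher in the low population was 55.1% with 50 counts in all 4 libraries (54.8% over all kept genes) and, leaving out 1 Nes-GFP low library each, 53.0035% to 64.7%, the lowest without AML replicate 2 (51.9% over all kept genes).

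Log2 fold changes of the niche genes, of blood cell genes, of Nes, Gpx1 and Gpx3 changed sign when 1 of the 4 Nes-GFP high libraries was left out. They ran from -4.16 to 1.14 in Cxcl12 (0.23 without AML replicate 1), from -0.89 to 1.67 in Spp1 (0.10 without AML replicate 1 and 0.17 with the replicate block), from -5.28 to 1.28 in Kitl, from -2.46 to 1.36 in Lepr (0.41 without AML replicate 1), from -2.82 to 1.14 in Vcam1 (0.34 without AML replicate 1) and from -2.11 to 0.062 in Angpt1. The highest value came without normal replicate 2 in these genes, but for Spp1, where it came without normal replicate 1. They ran from -0.18 to 3.64 in Nes, from -3.10 to 2.84 in S100a8, from -2.58 to 2.93 in Ngp, from -4.38 to 0.44 in Lyz2 and from -3.25 to 1.03 in Ptprc, with the change of sign without normal replicate 1. Gpx3 ran from -0.72 to 0.26, and Gpx1 from -0.67 to 1.35 (-0.64 without AML replicate 1, -0.057 with DESeq2 and -0.031 with the 4 libraries alone). The cause was not tested. In named genes, 1143 other values kept their direction and their side of the threshold, and 54 passed it. DESeq2 size factors for gene lists were added after seeing the data.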
